A study of Rattus norvegicus with 6 samples.

Results

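The imprinted H19/Mir675 and Plagl1 loci were represented by 3 rows of a table of 2455 long non-coding RNA (lncRNA) transcripts. The rows were taken by name, as all those assigned to the reference gene Mir675 or Plagl1 or carrying the identifier of either locus. The Mir675 locus (XLOC_007369, rn5 chromosome 1, 222639220 to 222642054) held TCONS_00012142 of 2311 bases and TCONS_00012143 of 2478 bases, and both overlapped an exon of the reference Mir675 without sharing a splice junction. The Plagl1 locus (XLOC_000050, chromosome 1, 8856930 to 8897146) held TCONS_00000085 of 3077 bases, which shared a splice junction with a Plagl1 reference transcript. They made up 2 of the 1646 loci in the table. All samples came from male rats of the inbred Brown Norway strain (BN) at 6 weeks of age, and the labels name no treatment or altered gene. The 6 tissues, each listed as 1 sample, were adrenal gland, cortex, hypothalamus, left ventricle, liver and outer medulla. Levels were FPKM, which divide the fragments of a transcript by its length and the library's size, and every tissue had a column 1 and a column 2 of them. The sources used here do not say if both were drawn from 1 animal or from different ones. A p-value below therefore sets a difference between tissues only against how far columns of a tissue differ, and that spread may be technical. Unless stated, the spread was pooled over all 6 tissues and drawn toward that of other loci. The hypothalamus columns carry the code B, which was matched to that tissue by elimination.

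H19 is a lncRNA gene expressed from the maternal chromosome in mammals, beside the paternally expressed growth factor gene Igf2. It is abundant in fetal tissues, falls in most organs after birth, and is the precursor of the microRNA miR-675. Plagl1, also called Zac1 or Lot1, is a paternally expressed gene for a zinc finger transcription factor that restrains cell division and is counted with H19 and Igf2 in a network of imprinted genes. The parent of origin was not measured here, since an inbred strain carries no alleles that would tell the chromosomes apart.

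The table names the first locus only by Mir675. In the RefSeq annotation of another rat assembly (GRCr8) the Mir675 hairpin lies within H19. Another gene entry there, LOC102548505, spans both the hairpin and H19. The transcripts of the table are many times longer than the 84 bases of the hairpin. The rows are therefore read here as H19-type host RNA and not as the mature microRNA, which was not measured. Whether they belong to H19 or to LOC102548505 was not tested. The sequences below are shown because they give the locus its name, and they come from RefSeq (GRCr8 chr1:207161752-207161835, minus strand). In the hairpin, capitals mark the mature products, at bases 15 to 36 for the 5p arm and 50 to 70 for the 3p arm. In the mature sequences, capitals mark the seed, bases 2 to 8.
Mir675 hairpin: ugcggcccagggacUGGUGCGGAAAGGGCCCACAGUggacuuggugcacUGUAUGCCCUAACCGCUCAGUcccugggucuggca
rno-miR-675-5p: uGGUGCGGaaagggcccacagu
rno-miR-675-3p: uGUAUGCCcuaaccgcucagu
Among 693 mature rat microRNA names in that table, 0 others shared the seed of the 5p arm and 0 shared that of the 3p arm.

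The steps between low values implied libraries of 3870000 (liver column 2) to 31790000 fragments (hypothalamus column 2). Of the marker genes listed for each tissue, few were present as lncRNA rows. Summed FPKM of the 5 liver genes found, of 11, was 28.7 to 61.2 in liver and at most 1.49 in any other column, although the row overlapping Fga was listed at 0 in liver. The row overlapping Slc12a1, a transporter gene of the thick ascending limb of the kidney, had 36.5 and 36.6 in outer medulla against 12.2 and 14.7 in cortex, while the 4 rows overlapping the neural gene Sox2 summed to at most 0.0917 in cortex against 5.50 and 6.56 in hypothalamus. The labels do not say of which organ the cortex was taken. The row antisense to Wt1, the other of 2 kidney genes found of 9, was listed at 0 in both of these tissues and had 2.69 and 0.496 in liver. Of 8 heart genes 0 were found, so the left ventricle label could not be checked this way.

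H19/Mir675 RNA was most abundant in liver and least abundant in outer medulla. Summed over its 2 transcripts the locus had 40.0 and 100.3 FPKM in liver. Cortex followed with 14.4 and 17.8, adrenal gland with 13.8 and 16.6, and left ventricle with 8.45 and 18.4. Hypothalamus had 1.26 and 0.774, and outer medulla 0.318 and 0.176. Both liver columns stood above every other column, the columns of cortex, adrenal gland and left ventricle lay among each other, and both outer medulla columns stood below all others. As means ± SD over 2 columns liver had 70.2 ± 42.6, cortex 16.1 ± 2.39, adrenal gland 15.2 ± 1.94, left ventricle 13.5 ± 7.07, hypothalamus 1.02 ± 0.345 and outer medulla 0.247 ± 0.1003. The locus ranked 12th of 1646 loci by mean FPKM in liver, between the 21st and 29th in cortex, left ventricle and adrenal gland, 250th in hypothalamus and 813th in outer medulla. The mean in liver was 284-fold that in outer medulla, and this fold rested on single columns: it was 162 without liver column 2, 406 without liver column 1, 398 without outer medulla column 1 and 221 without outer medulla column 2. The implied counts behind the main transcript were 12 and 7 fragments in outer medulla against 1022 and 843 in liver. Pooled over the columns of each tissue and divided by the pooled library depth, they gave a ratio of 221. Its exact 95% counting interval was 141 to 368. This interval covers counting error only.

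**Figure D1:**
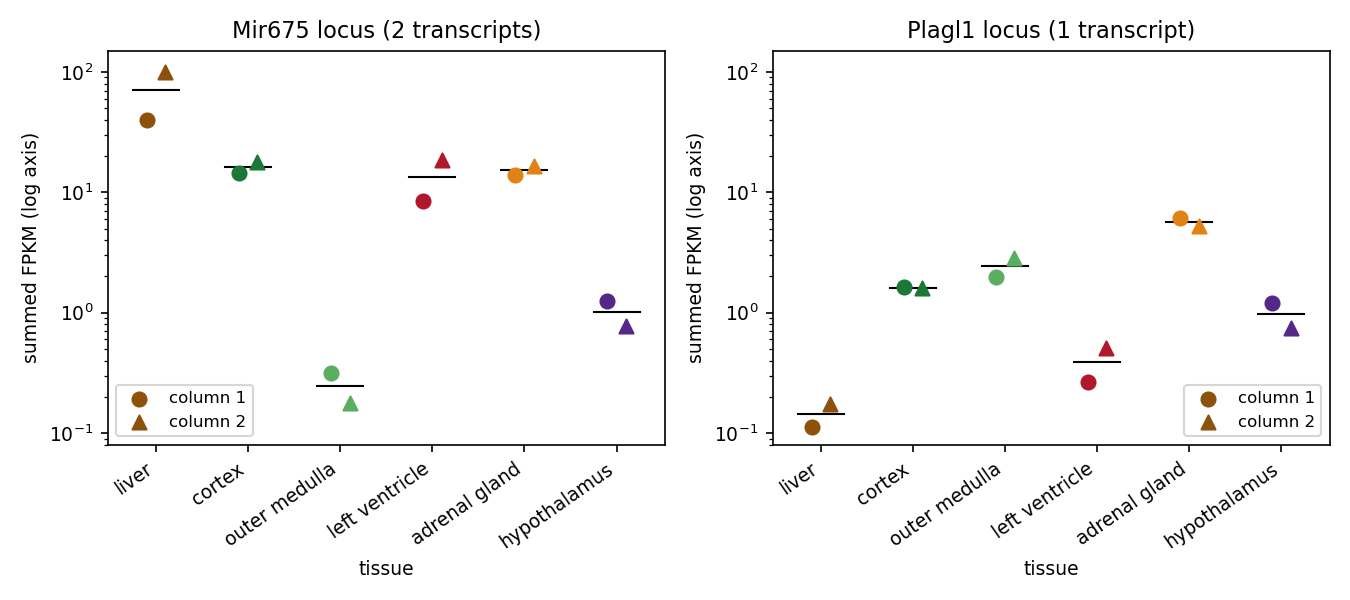
Summed FPKM (log axis) of the Mir675 locus (left) and the Plagl1 locus (right) in the 6 tissues. Circles are column 1, triangles column 2 and lines the mean of both. Mir675 runs from 0.176 in outer medulla to 100.3 in liver, and Plagl1 from 0.113 in liver to 6.12 in adrenal gland.

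Tissues were compared with limma on log2(summed FPKM + 0.1), with the spread shared by all 6 tissues and p-values adjusted by the Benjamini-Hochberg method over all loci whose mean FPKM reached 1 in either tissue. Differences below are on this scale. The Mir675 locus differed at adjusted p below 0.05 in 12 of the 15 pairs of tissues. Most loci of the table differ between most tissues, so this count has to be read against the share of all tested loci that differed in the same pair. That share was 64.2% for liver against cortex, 65.5% for liver against outer medulla, 66.3% for liver against left ventricle, 67.4% for liver against adrenal gland and 77.1% for liver against hypothalamus. It was 64.4% for cortex against left ventricle, 67.2% for cortex against adrenal gland, 78.6% for cortex against hypothalamus, 59.9% for outer medulla against left ventricle and 63.4% for outer medulla against adrenal gland. It was 74.8% for outer medulla against hypothalamus, 61.7% for left ventricle against adrenal gland, 72.7% for left ventricle against hypothalamus and 71.5% for adrenal gland against hypothalamus. The pair of cortex and outer medulla stood apart, with 24.2% of loci.

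In the order of levels, liver came first and cortex next, with a difference of cortex minus liver of -1.98 (SE 0.51, adjusted p = 0.00859, limma). That call was lost without liver column 2 (-1.32, adjusted p = 0.0578) and without cortex column 1 (-1.83, adjusted p = 0.0519). With the spread taken from the compared pair of tissues alone, an alternative added after the values were seen, liver no longer passed against cortex (adjusted p = 0.0581), left ventricle (0.0585) or adrenal gland (0.0502). Cortex, adrenal gland and left ventricle, the next in order, did not differ beyond their spread. The 95% interval of the difference ran from -1.26 to 1.10 for adrenal gland minus cortex, from -1.54 to 0.82 for left ventricle minus cortex, and from -0.90 to 1.46 for adrenal gland minus left ventricle, so differences of about that size would not have been seen. Hypothalamus was lower than these, with hypothalamus minus left ventricle at -3.53 (adjusted p = 2.97e-04), or -2.60 (adjusted p = 0.00282) when columns were rescaled to the same median. It exceeded outer medulla by 1.68 (SE 0.51, adjusted p = 0.0159), a call lost with a pseudocount of 1 (0.69, adjusted p = 0.205) and without outer medulla column 2 (1.38, adjusted p = 0.0958). Rescaling raised that difference to 2.73 (adjusted p = 0.00210).

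The Mir675 locus was lower in outer medulla than in cortex, at 65.2-fold between the means. Outer medulla minus cortex was -5.57 (SE 0.51, adjusted p = 1.92e-04), and in the 21 alternatives it ran from -6.02 to -3.77 with adjusted p of at most 0.00442. Another row moved with it. TCONS_00107388, spliced in part like the skeletal muscle gene Myl1, a myosin light chain, had 32.1 and 36.5 FPKM in cortex against 0.695 and 0.937 in outer medulla. In adrenal gland it had 34.7 and 32.4, in left ventricle 4.43 and 34.9, in hypothalamus 1.60 and 1.16, and in liver 0 and 1.047. It was thus low in the 2 tissues where Mir675 was lowest, but near 0 in liver, where Mir675 was highest. It was the 1 gene found of 5 on the skeletal muscle list, 0 of 4 genes on the fat and connective tissue list were found, and the part of such tissue in the Mir675 values was not tested.

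**Figure D2:**
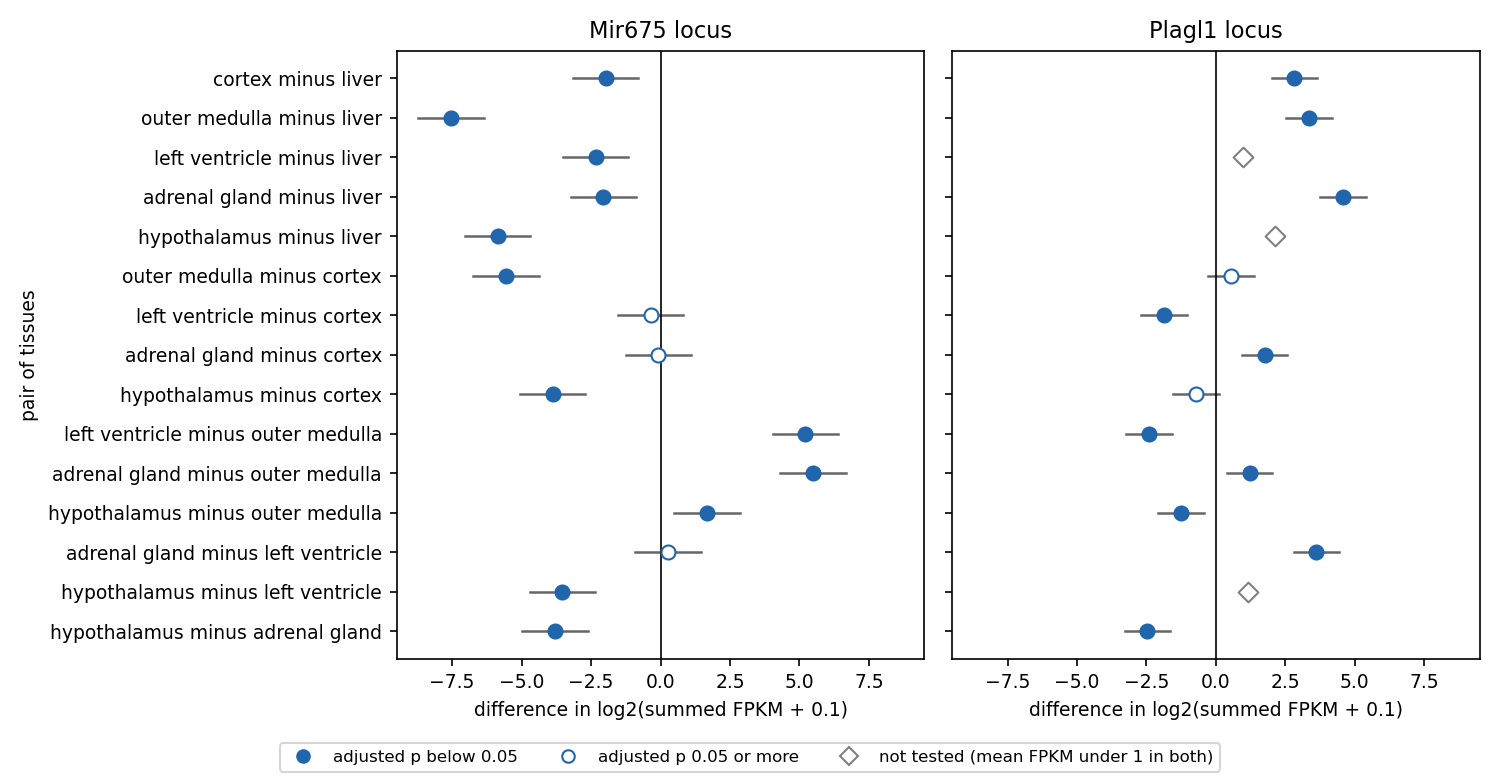
Difference between 2 tissues in log2(summed FPKM + 0.1) for every pair, for the Mir675 locus (left) and the Plagl1 locus (right), with 95% intervals from limma. Filled circles have an adjusted p below 0.05 (12 pairs for Mir675, 10 for Plagl1), open circles do not, and the 3 diamonds were not tested. Outer medulla minus cortex is -5.57 for Mir675 and 0.54 for Plagl1.

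Nearly all FPKM of the Mir675 locus was assigned to 1 of its 2 transcripts. TCONS_00012142 alone had 39.2 and 100.3 in liver, 13.3 and 16.1 in adrenal gland, 14.3 and 17.8 in cortex and 1.14 and 0.774 in hypothalamus, and in outer medulla and left ventricle it equalled the whole locus to 3 digits. TCONS_00012143, the longer one, had 0.808 FPKM in liver column 1, 0.581 and 0.538 in adrenal gland, 0.175 in cortex column 1 and 0.123 in hypothalamus column 1. In the other 7 columns it was listed at 0 or below 1e-04. Its share of the locus was 4.20 and 3.24% in adrenal gland, the 1 tissue with a clear value in both columns, and 2.02 and 0% in liver. The highest share, 9.73%, came in hypothalamus column 1 from about 8 implied fragments. With 3 fragments as the limit of a count of 0, this transcript could have reached 0.332 FPKM in liver column 2, against 0.808 in column 1. That limit takes the 0 as a plain count. Here the 0 may come from how fragments shared with TCONS_00012142 were divided, so the limit cannot show that the columns differ. FPKM of overlapping transcripts depend on how a program divides shared fragments, so these shares are estimates, and this transcript was under the FPKM minimum of 1 in every tissue. At a minimum of 0.5 it entered limma's F test among the tissues and did not pass (adjusted p = 0.145), nor did it with no minimum (adjusted p = 0.182).

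TCONS_00012142 and TCONS_00000085, the 2 of 3 transcripts above that minimum, both differed among the 6 tissues in limma's F test (adjusted p = 3.87e-05 and 8.75e-05), as did 81.1% of all 1269 transcripts tested. Both were also higher in 1 tissue than in each of the other 5, as were 45.7% of all transcripts. TCONS_00012142 exceeded its next tissue by 1.97 in liver (adjusted p = 0.0152), and TCONS_00000085 by 1.22 in adrenal gland (adjusted p = 0.0268). These calls were close to the threshold. The former was lost without liver column 2, cortex column 1 or adrenal gland column 1 (adjusted p = 0.0741, 0.0773 and 0.0584). The latter was lost without outer medulla column 1 or either adrenal gland column (adjusted p = 0.143, 0.0977 and 0.0553) and with a pseudocount of 0.01 (0.0726).

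Plagl1 RNA was most abundant in adrenal gland and least abundant in liver. TCONS_00000085, the only transcript of the locus in the table, had 6.12 and 5.30 FPKM in adrenal gland. Outer medulla followed with 1.99 and 2.87, cortex with 1.64 and 1.59, and hypothalamus with 1.199 and 0.746. Left ventricle had 0.266 and 0.507, and liver 0.113 and 0.176. The columns of no 2 tissues overlapped. With 2 columns per tissue this is a weak criterion, and its share over all loci was not computed. In limma, 2 of the 12 tested pairs did not pass. Means ± SD over 2 columns were 5.71 ± 0.582 in adrenal gland, 2.43 ± 0.621 in outer medulla, 1.62 ± 0.0385 in cortex, 0.973 ± 0.321 in hypothalamus, 0.387 ± 0.171 in left ventricle and 0.144 ± 0.0447 in liver. Among 1646 loci it ranked 78th in adrenal gland, 160th in outer medulla, 253rd in cortex, 265th in hypothalamus, 578th in left ventricle and 818th in liver. This row is a spliced form set apart as a lncRNA. The protein-coding Plagl1 transcripts were not analysed here, and fragments of shared exons may have been divided between them and this row.

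The liver value rested on few fragments. The implied counts were 4 and 2 in liver and 8 and 15 in left ventricle, against 243 and 271 in adrenal gland. Outer medulla had 101 and 155, cortex 83 and 69, and hypothalamus 97 and 70. Adrenal gland stood 44.0-fold over liver per library depth, with an exact 95% counting interval of 20.1 to 120.4, and 14.9-fold over left ventricle, with an interval of 9.80 to 23.7.

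Of 15 pairs, 12 had a tissue with a mean Plagl1 FPKM of at least 1 and were tested, and 10 differed, against the shares of all loci given above for the same pairs. Adrenal gland, the highest, exceeded outer medulla, the next, by 1.22 (SE 0.36, adjusted p = 0.0160, limma). That call was lost without outer medulla column 1 (0.97, adjusted p = 0.104) and without adrenal gland column 1 (1.12, adjusted p = 0.0718). Outer medulla and cortex did not differ beyond their spread (outer medulla minus cortex 0.54, 95% interval -0.28 to 1.36, adjusted p = 0.324), and neither did cortex and hypothalamus (hypothalamus minus cortex -0.71, interval -1.53 to 0.11, adjusted p = 0.0990). Hypothalamus was lower than outer medulla (-1.25, adjusted p = 0.0120), and left ventricle was lower than cortex (-1.86, adjusted p = 0.00167). Liver had the lowest mean, but its pair with left ventricle was among those not tested. Cortex exceeded liver by 2.82 (adjusted p = 1.36e-04) and adrenal gland exceeded it by 4.58 (adjusted p = 8.34e-06).

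The place of hypothalamus in the Plagl1 order depended on scaling and on single columns. When columns were rescaled to the same median, which raised the hypothalamus columns by 0.84 and 0.94 on the log2 scale and moved the others by -0.38 to 0.08, hypothalamus minus cortex turned to 0.38 (adjusted p = 0.334) and hypothalamus minus outer medulla shrank to -0.11 (adjusted p = 0.799). The latter call was also lost without outer medulla column 2 (-0.99, adjusted p = 0.0783) and without hypothalamus column 2 (-0.94, adjusted p = 0.0867). The pairs of liver, left ventricle and hypothalamus were under the minimum. At a minimum of 0.5 hypothalamus exceeded liver by 2.11 (adjusted p = 7.26e-04) and left ventricle by 1.15 (adjusted p = 0.0195), and with no minimum left ventricle minus liver was 0.96 (adjusted p = 0.0722). The adrenal marker row at Cyp11b3, a steroid hydroxylase gene, had 60.5 and 44.4 FPKM in adrenal gland, 5.89 in hypothalamus column 1 and 1.21 in hypothalamus column 2. Plagl1 and Mir675 were both higher in hypothalamus column 1 than in column 2 as well. The Cyp11b3 row also had 0.801 and 2.18 in left ventricle and 0 and 2.10 in liver, and was listed at 0 in cortex and outer medulla. The Sox2 rows summed to 0 and 1.10 in adrenal gland. The part of adrenal RNA in the hypothalamus values, or of neural RNA in the adrenal gland values, was not tested.

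The 2 loci ordered the tissues differently. Mir675 exceeded Plagl1 by 355-fold and 570-fold in liver, 31.8-fold and 36.4-fold in left ventricle, 8.77-fold and 11.2-fold in cortex, and 2.26-fold and 3.13-fold in adrenal gland, as ratios of FPKM. In hypothalamus they were nearly equal, at 1.052-fold and 1.038-fold. In outer medulla the order turned, with Plagl1 6.25-fold and 16.3-fold over Mir675. The liver ratios rest on the few Plagl1 fragments given above. No test of the ratio was made. Across the 12 columns Pearson's r between the loci was -0.38 and Spearman's rho -0.50. They are given as a description, since columns of a tissue are not independent points and both loci share the scaling of each column. Low FPKM also rest on few fragments. Both loci reached a mean FPKM of 1 in cortex (16.1 for Mir675 and 1.62 for Plagl1) and in adrenal gland (15.2 and 5.71), and in no other tissue.

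**Figure D3:**
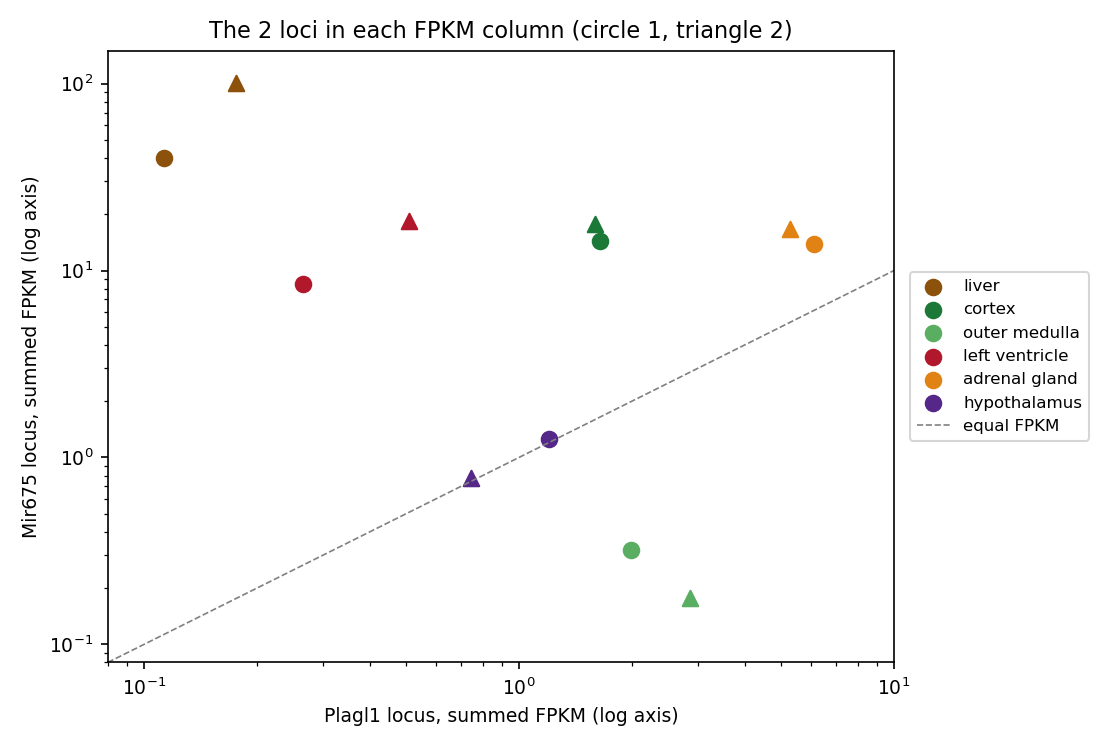
Summed FPKM of the Mir675 locus against the Plagl1 locus, both on log axes, in each column (circles column 1, triangles column 2). The dashed line marks equal FPKM. Liver lies farthest above the line, hypothalamus on it, and outer medulla below it.

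Both loci were less confined to 1 tissue than most loci that reached a mean FPKM of 1 in any tissue. The specificity index tau, from 0 for an even level to 1 for a single tissue and computed on log2(FPKM + 1), was 0.568 for Mir675 and 0.650 for Plagl1. The median over 1052 loci at FPKM 1 or more was 0.799, and 24.0% of loci had a lower tau than Mir675 and 32.2% a lower one than Plagl1. Mir675 reached a mean FPKM of 1 in 5 tissues, and 139 of the 1052 loci did so in 5 or more. Plagl1 did so in 3, and the share of loci that did so in 3 or more was not computed.

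By a rule that took the 5 loci with the highest Pearson's r across the 12 columns, the pattern of Mir675 was most like that of a locus sharing a splice junction with Mkks, a chaperonin-like gene of Bardet-Biedl syndrome (r = 0.87, chromosome 3, 136347549 to 136366162). That locus had 16.9 and 16.2 FPKM in liver, 13.7 and 17.9 in left ventricle, and 4.72 and 2.99 in outer medulla, a much narrower range than that of Mir675. Next came the loci matching ENSRNOG00000017695 (r = 0.86) and ENSRNOG00000017586 (r = 0.81), and the unnamed XLOC_011938 (r = 0.81) and XLOC_056061 (r = 0.77). XLOC_011938 (chromosome 10, 81661970 to 81676304) had 32.6 and 26.1 in liver against 1.57 and 1.12 in outer medulla, with cortex at 3.46 and 2.67. All 5 had their highest mean in liver and their 2 lowest means in outer medulla and hypothalamus.

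For Plagl1 the closest patterns were those of the unnamed XLOC_062058 (r = 0.94) and XLOC_045517 (r = 0.93). XLOC_062058 (chromosome 8, 13339574 to 13347392) had 3.50 and 2.38 FPKM in adrenal gland against 1.39 and 1.25 in cortex, and both liver columns list it at 0. Next were 2 loci listed with the same interval (chromosome 7, 116261774 to 116411778), one overlapping Gm20654 (r = 0.93) and one antisense to Ly6i (r = 0.90), and then XLOC_028998 (r = 0.90). All 5 had their highest mean in adrenal gland. These values of r describe 6 tissues with 2 columns each, were picked as the highest among 1052 loci, and carry no p.

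**Figure D4:**
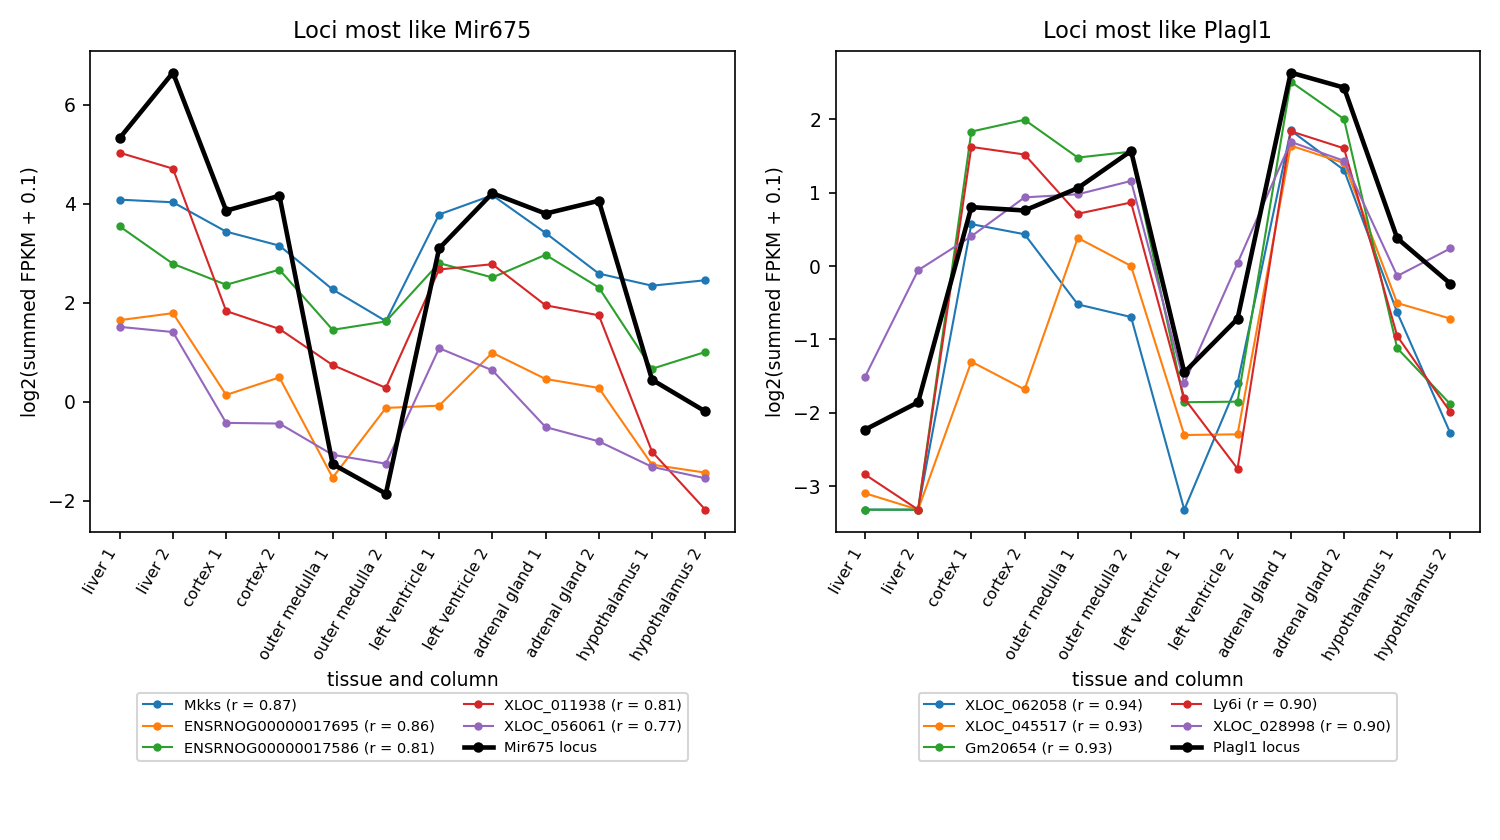
log2(summed FPKM + 0.1) in each tissue and column for the Mir675 locus (left) and the Plagl1 locus (right), in black, with the 5 loci of highest Pearson's r to each. The lines of the Mir675 group are low in outer medulla and hypothalamus, and those of the Plagl1 group peak in adrenal gland.

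Other loci of the table near H19 did not follow its range. The nearest, XLOC_007373 (chromosome 1, 222799878 to 222858973), lay 158 kb away and has no reference gene. Its 3 transcripts summed to 1.09 and 3.92 FPKM in outer medulla, 4.11 and 1.56 in liver and 2.36 and 3.998 in adrenal gland. Left ventricle had 2.42 and 1.85, cortex 3.50 and 2.63, and hypothalamus 0.570 and 1.45, so its outer medulla columns lay among those of the other tissues. XLOC_007380, 394 kb away and in part antisense to the tetraspanin gene Tspan32, was between 0.0969 and 0.703 in all columns. Within 500 kb of Plagl1 there were 0 other loci, the nearest being 857 kb away. In GRCr8 the protein-coding neighbours of H19 are Mrpl23, a mitochondrial ribosomal protein gene, and Igf2, and those of Plagl1 include Sf3b5, a splicing factor gene.

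Of 65 further imprinted genes and 8 name stems looked up, 0 transcripts were found under those spellings. Igf2, Meg3, Kcnq1ot1, Airn and Peg3 were among the names looked up. Stems were matched only from the first letter of a name, so names with a species prefix, such as rno-mir-679, would have been missed. The 0 for the stems therefore does not show that such rows are absent. The wider imprinted network was not followed further by name. The table held 9 rows named for microRNAs of the imprinted Dlk1-Dio3 domain, all of 1 locus (XLOC_056519, chromosome 6, 143006931 to 143062780) and picked after the names were seen. They reached 1.30 FPKM in adrenal gland and 1.24 in hypothalamus, with rows near 0 in single columns of both, and were at most 0.0899 in any column of the other 4 tissues. No test was made of them.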

How the data were processed

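Per the labels' protocols, total RNA was taken with TRIzol and TruSeq Stranded RNA LT libraries were built. bcl2fastq 2.15.0 and genome build rn5 were used, per the submitters' processing notes. The authors deposited FPKM per assembled transcript. Not given in the sources used here: aligner, estimator, strand setting, lncRNA criteria, and whether starts count from 0 or 1. Transcript lengths are another kind of deposited value. Of 2458 rows, 3 had no values and were left out. FPKM were summed per locus. Implied fragments came from the steps of low FPKM of transcripts over 500 bases alone at their locus, assuming fragments of 140 bases, and gave a whole number to within 0.15 for 82.3 to 89.9% of them. log2(FPKM + 0.1) in all 12 columns was fitted by limma 3.58.1 (R 4.3.3), its variance trend included. The fit was also tried on simulated loci, most of them equal in all tissues and with independent noise. These data are unlike that, so the trial does not bear on the p-values given here. Python 3.11.15, pandas 2.3.3, NumPy 2.4.6 and SciPy 1.17.1 were used for the rest. Named loci followed a rule: all members, the 5 most alike to each, neighbours within 500 kb, and lists of imprinted and marker genes. Members and lists were chosen with earlier results of these data known. Alternatives were other pseudocounts, FPKM minimums, rescaling, a block for the column number, columns left out, and the spread of the compared pair alone.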

Additional observations from a re-analysis of the deposited data

How the results depend on the processing

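The number of tissue pairs that differed was 12 for Mir675 and 10 for Plagl1. Without any 1 column it ran from 11 to 12 and from 9 to 11, and with the spread of the compared pair alone it was 9 and 10. The pairs tested were not the same throughout, since a pair entered only where a mean FPKM reached the minimum. For Mir675, hypothalamus minus outer medulla was tested in 18 alternatives and hypothalamus minus cortex in 20. Such a count can thus move without a call being lost or gained in a pair tested both times. Without both hypothalamus columns, which leaves 10 pairs, Mir675 differed in 7, the same of these pairs that differed with all columns. Both tested transcripts differed among tissues in all 20 alternatives run for them. The number that exceeded each other tissue, 2, ran from 0 to 2 without any 1 column, and was 1 with a pseudocount of 0.01. Leaving out hypothalamus column 1 together with adrenal gland column 2 made it 0. Signs turned for some differences that had not passed the test. Adrenal gland minus cortex for Mir675 became 0.046 when rescaled, and without any 1 column it ran from -0.23 to 0.071, above 0 without cortex column 2 or adrenal gland column 1. Likewise left ventricle minus cortex ran from -0.91 to 0.20 and adrenal gland minus left ventricle from -0.28 to 0.83, both turning without left ventricle column 1. Hypothalamus minus cortex for Plagl1 became 0.38 when rescaled. The cause was not tested. A replicate block for the column number left both counts of pairs at 12 and 10. The correlation of deviations of same-numbered columns ran from -0.04 to 0.15 over 15 pairs of tissues and was over 0.1 in 2. This falls short of 0.1 in every pair, which was asked for before treating columns as paired, and does not tell whether they share an animal or a run. Depth limits Plagl1 in liver and Mir675 in outer medulla, where few fragments were counted.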
